A study of Mus musculus with 18 samples.

Results

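Chromatin accessibility around Tnf, Lta and Ltb, 3 neighbouring cytokine genes on mouse chromosome 17, was examined in bone marrow-derived macrophages (BMDMs). The locus was defined by position, as the bodies of the 3 genes and 50 kb on either side of their most upstream start sites (chr17:35144439-35255351, mm10, 110913 bp). It contained 47 of 82391 reference peaks, 15 of 59617 extended regions and 54 of 84660 summits. A reference peak is a stretch called accessible by the authors, an extended region is a stretch around 1 or more reference peaks, and a summit is a local maximum of accessibility with a score. All counts and scores below describe these lists, and no test was possible on them.

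Accessibility was measured by ATAC-seq, in which the Tn5 transposase cuts and tags exposed DNA. BMDMs were grown from bone marrow of young male wild type C57/BL6 mice, and all cultures were first given the vehicle DMSO for 1 h. Cells then stayed untreated or received either LPS, the bacterial lipopolysaccharide that triggers TLR4, or IL-4, a cytokine of type 2 immunity. Both were used at 10 ng/mL and applied for 30 min, 1 h, 2 h and 4 h, which gave 9 groups with 2 libraries each (18 libraries: 2 untreated, 8 with LPS and 8 with IL-4). The 3 lists were pooled over the 18 libraries by the authors and had no column for a single library. Values for LPS, IL-4 or untreated cells alone, the spread between replicates and the depth of each library were therefore not analysed here. No source used here states what scale the score has, so scores were used to order summits within the list, and the size of a difference between scores has no known meaning.

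TNF is a major inflammatory cytokine, released early by macrophages that meet bacterial products. It forms homotrimers that bind the receptors TNFR1 and TNFR2. Lta encodes lymphotoxin alpha, which is secreted as a homotrimer and binds these same receptors, or is held at the cell surface in a complex with lymphotoxin beta, the product of Ltb. This surface complex signals through the lymphotoxin beta receptor and is required for the formation of lymph nodes. Lymphotoxins are best known as products of lymphocytes. The genes lie side by side in the class III part of the major histocompatibility complex, where Tnf and Lta are read from the minus strand and Ltb from the plus strand.

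The promoter sequences are shown first, because the 3 genes differed at their start sites. Each stretch holds the 250 bases before the most upstream start site, read 5′ to 3′ on the strand of the gene in assembly GRCm38, and capitals mark matches to the searched motifs. They lie at chr17:35202008-35202257 (minus strand) for Tnf, chr17:35205352-35205601 (minus strand) for Lta and chr17:35194189-35194438 (plus strand) for Ltb.
Tnf promoter: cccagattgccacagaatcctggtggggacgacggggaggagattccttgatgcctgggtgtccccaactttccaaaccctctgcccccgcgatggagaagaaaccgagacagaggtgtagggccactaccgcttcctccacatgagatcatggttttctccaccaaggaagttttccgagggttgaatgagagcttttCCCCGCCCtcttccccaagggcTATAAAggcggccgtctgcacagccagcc
Lta promoter: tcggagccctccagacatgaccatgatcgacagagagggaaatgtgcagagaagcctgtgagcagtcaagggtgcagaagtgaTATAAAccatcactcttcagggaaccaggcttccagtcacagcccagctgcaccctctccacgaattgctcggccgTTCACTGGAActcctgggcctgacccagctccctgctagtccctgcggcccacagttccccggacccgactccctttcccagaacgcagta
Ltb promoter: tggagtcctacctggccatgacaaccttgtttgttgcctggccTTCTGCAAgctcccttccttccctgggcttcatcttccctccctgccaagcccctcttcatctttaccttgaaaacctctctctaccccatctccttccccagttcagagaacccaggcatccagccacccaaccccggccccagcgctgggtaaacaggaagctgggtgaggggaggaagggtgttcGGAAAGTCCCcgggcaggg
The motifs were searched as exact words on both strands, and a match describes the letters only. The Tnf promoter contained the TATA box word TATAAA, the core element that places the start of transcription, with its first base 29 bp before the start site. Of 21938 protein-coding promoters of the same length, 11.5% held this word on either strand, and 3.25% held it on the strand of the gene within 50 bases of the start. Tnf also had the SP/KLF word CCCCGCCC 51 bp before the start site, as did 19.7% of the promoters at some position. In the Lta promoter, TATAAA began 167 bp before the start site and a match to the STAT6 word TTCNNNNGAA began 91 bp before it, against 5.42% of promoters with a STAT6 match. The Ltb promoter had a match to the NF-kB consensus, which begins 19 bp before the start site and reads GGGACTTTCC on the strand opposite to the one printed. NF-kB is the factor released by TLR4 and TNF receptor signalling, and its consensus was found in 4.24% of the promoters. The C/EBP word TTGCNNAA was matched at Ltb 207 bp before the start site and in 9.23% of the promoters.

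Tnf and Ltb had a start site peak, defined as a reference peak no more than 1000 bp from any annotated start site, and Lta did not. That is 2 of 3 genes, beside 56.5% of 21938 protein-coding genes. The 3 genes are known to differ in the cells that express them, and they also differed here in the part of the gene that was accessible. Reference peaks covered 89.5% of the body of Tnf (2351 of 2627 bp), 20.4% of Ltb (384 of 1882 bp) and 0% of Lta (2187 bp). The median over protein-coding genes was 0.871% and the 95th percentile 10.2%. Because coverage can depend on gene length, the members were also set beside 637 genes of their own range of lengths. In that group Tnf had the highest coverage and Ltb was at percentile 91.3, whereas 391 genes (61.4%) had no base in a reference peak, like Lta, beside 36.5% of all protein-coding genes. None of 20466 protein-coding genes at least as long as Ltb, the shortest of the 3, was covered as much as Tnf. Lengths and start sites are those of GENCODE M21.

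**Figure D1:**
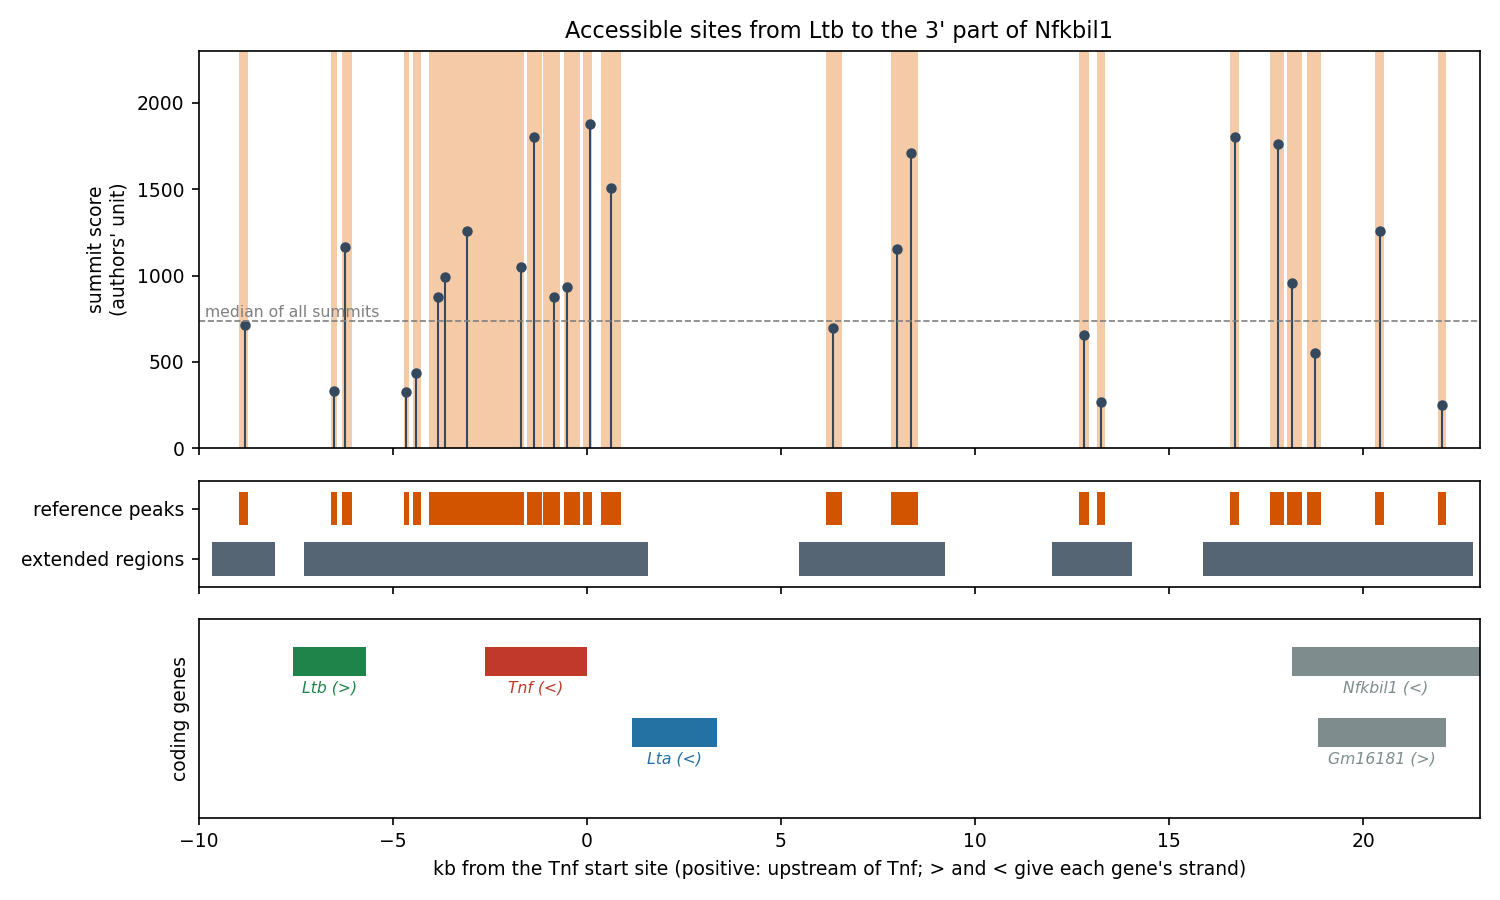
Summit scores (upper panel, authors' unit), reference peaks and extended regions (middle) and coding genes (lower) against the distance from the Tnf start site in kb, with positive values upstream of Tnf. Each point is 1 summit of the pooled list, shading repeats the reference peaks, and the dashed line is the median score of all summits (737). Reference peaks fill most of Tnf, while no summit lies in the 5290 bp around Lta.

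Tnf (ENSMUSG00000024401.14, chr17:35199381-35202007) lay in an almost continuous run of accessible chromatin. The summit closest to its start site, at position 35202091, was 84 bp upstream and had a score of 1877, the second highest of the locus and at percentile 96.5 of all summits. Its reference peak (chr17:35201905-35202137) spans the start site and the TATA box printed above. Among 12321 coding genes with a summit within 1000 bp of a start site, the best score of Tnf was at percentile 80.5, beside a median of 1456 (quartiles 1071 and 1799). The promoter of Tnf thus scored above the upper quartile of accessible promoters, without being among the very highest.

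Within the body of Tnf the score was highest in an intron. The summit at position 35200652 (peak chr17:35200452-35200841) reached 1799 (percentile 95.2), the next in order after the summit at the start site. Another pair of intronic summits, at 35201153 (peak chr17:35200872-35201324) and 35201490 (peak chr17:35201427-35201821), scored 878 and 934. A summit over coding sequence, at 35200302, scored 1048. It belongs to the peak chr17:35197952-35200390, which at 2439 bp was the fourth widest of all 82391 reference peaks, beside a median width of 227 bp. Of this peak, 1010 bp lay in the 3′ part of Tnf and 1429 bp ran on past the end of the gene towards Ltb. It held 3 further summits past the gene's end, at 35198911, 35198340 and 35198176, with scores of 1260, 990 and 878. All 9 summits from 35198176 to 35202638 carried the name of 1 merged call and spanned 4463 bp: 3 past the end of Tnf, 4 inside it and 2 before its start. Only 45 of 69718 merged calls, this one included, had 9 or more listed summits.

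The sequence under the intronic summit is given because it holds both AP-1 words found in the accessible stretch around Tnf. AP-1 is the FOS and JUN factor family activated by MAP kinases. The stretch is chr17:35200562-35200742, read on the minus strand, and capitals mark the 2 matches to TGACTCA.
Tnf intron summit: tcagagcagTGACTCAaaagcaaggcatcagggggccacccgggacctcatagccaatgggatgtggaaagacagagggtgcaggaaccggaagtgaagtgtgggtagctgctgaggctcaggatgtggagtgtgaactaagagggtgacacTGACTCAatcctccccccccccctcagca
These words lay on either side of the summit, 78 bp away on the upstream side and 65 bp on the other. No NF-kB match lay within 100 bp of any of the 9 summits of the Tnf call. The extended region that holds the call had 3 NF-kB matches, all inside reference peaks. Most matches of other motifs in this region were in reference peaks too (AP-1 2 of 2, C/EBP 3 of 4, TATAAA 3 of 4, IRF 1 of 2). The NF-kB match GGGGCTTTCC (chr17:35202510-35202519) lay 503 bp upstream of Tnf in the peak chr17:35202373-35202878. The other two, GGGAAATTCC and GGGAATTTCC, overlap in all but 1 base (chr17:35199167-35199177) and lay in the wide peak past the end of Tnf. Within 200 bp, 1 of the 9 summits had an NF-kB match, the one before the start of Tnf at 35202638.

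Lta (ENSMUSG00000024402.5, chr17:35203165-35205351) had neither a reference peak nor a summit in its body or at its single start site. The closest peak was the one between Tnf and Lta just named. It lay 287 bp past the 3′ end of Lta and 2473 bp from its start site, and its summit at 35202638 scored 1505 (percentile 88.2). With 2500 bp allowed in place of 1000 bp, this peak would count as a start site peak of Lta, and all 3 genes would have one. On the other side the closest peak began 2818 bp before the start site. The stretch without a peak (chr17:35202879-35208168, 5290 bp) contains all of Lta and was the fourth widest of 46 gaps between neighbouring peaks of the locus, whose median was 784 bp. The extended regions covered 18.9% of Lta, at its 3′ end, because they add sequence around each peak.

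Although Lta itself was free of peaks, its surroundings were dense in summits. Within 50 kb of the start site there were 54 summits for Lta, 53 for Tnf and 51 for Ltb, beside a median of 6 over protein-coding genes. These 3 windows overlap and share nearly all of their summits. Only 11 protein-coding genes, Lta included, had as many as Lta, and 4 of these (Gm16181, Atp6v1g2, Nfkbil1 and Lta) lie in this same locus. A start site peak was present at 9 of the 11, beside 56.5% of all protein-coding genes. The exceptions were Lta and Lbhd2, which was named after its values were seen.

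Upstream of Lta, away from all 3 genes, lay a group of intergenic summits at 35208342, 35209995 and 35210357, which scored 695, 1153 and 1708. They were 2991, 4644 and 5006 bp from the Lta start site and 6335, 7988 and 8350 bp from the Tnf start site. The best of them (peak chr17:35209847-35210524) was at percentile 93.4 of all summits, and its sequence is given because it holds an NF-kB match. The stretch is chr17:35210282-35210432 on the minus strand, and the capitals mark GGGACTTTCC read from the opposite strand.
summit upstream of Lta: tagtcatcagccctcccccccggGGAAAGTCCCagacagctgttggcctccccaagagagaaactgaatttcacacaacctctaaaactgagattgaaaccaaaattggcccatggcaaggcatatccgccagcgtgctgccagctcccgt
This match lay 48 bp from the summit and had the same 10 letters as the one in the Ltb promoter. The same letters also occurred at the summit 35174672 in an Aif1 intron.

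Ltb (ENSMUSG00000024399.5, chr17:35194439-35196320) had accessible sites in its body, while its start sites were outside any peak. Its nearest peak (chr17:35195427-35195562) was 801 bp from the closest of 3 annotated start sites and 988 bp from the most upstream one. The summit of this peak, at 35195487, scored 332. That was at percentile 0.649 of the best scores of the 12321 genes with a summit near a start site. Ltb counted as a gene with a start site peak only through this weak site, and it did not when 500 bp were allowed. The stronger of the 2 summits in Ltb, at 35195787 (peak chr17:35195696-35195943), scored 1164 (percentile 75.6) and lay over a coding exon further into the gene. Upstream of Ltb the closest summit was at 35193187, 1252 bp before the start site, with a score of 716. Between the ends of Ltb and Tnf, which face each other, the summits at 35197343 and 35197613 scored 324 and 439. The latter lay entirely in repeat sequence, although the 76 bases around it, like those around all 54 summits, occur once in the genome.

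The reference peaks in and around Ltb and Tnf were joined in a single extended region (chr17:35194727-35203578, 8852 bp) with 10 reference peaks and 13 summits. Its flank also took in the 3′ end of Lta, where no reference peak lay. Of 59617 extended regions, 23 had as many summits or more, 36 as many reference peaks and 24 were as wide, each count including this one. Extended regions covered 100% of Tnf and 84.7% of Ltb, against 18.9% of Lta. Among protein-coding genes these values were at percentiles 99.6, 98.6 and 78.6, so by this measure Lta was above most genes.

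**Figure D2:**
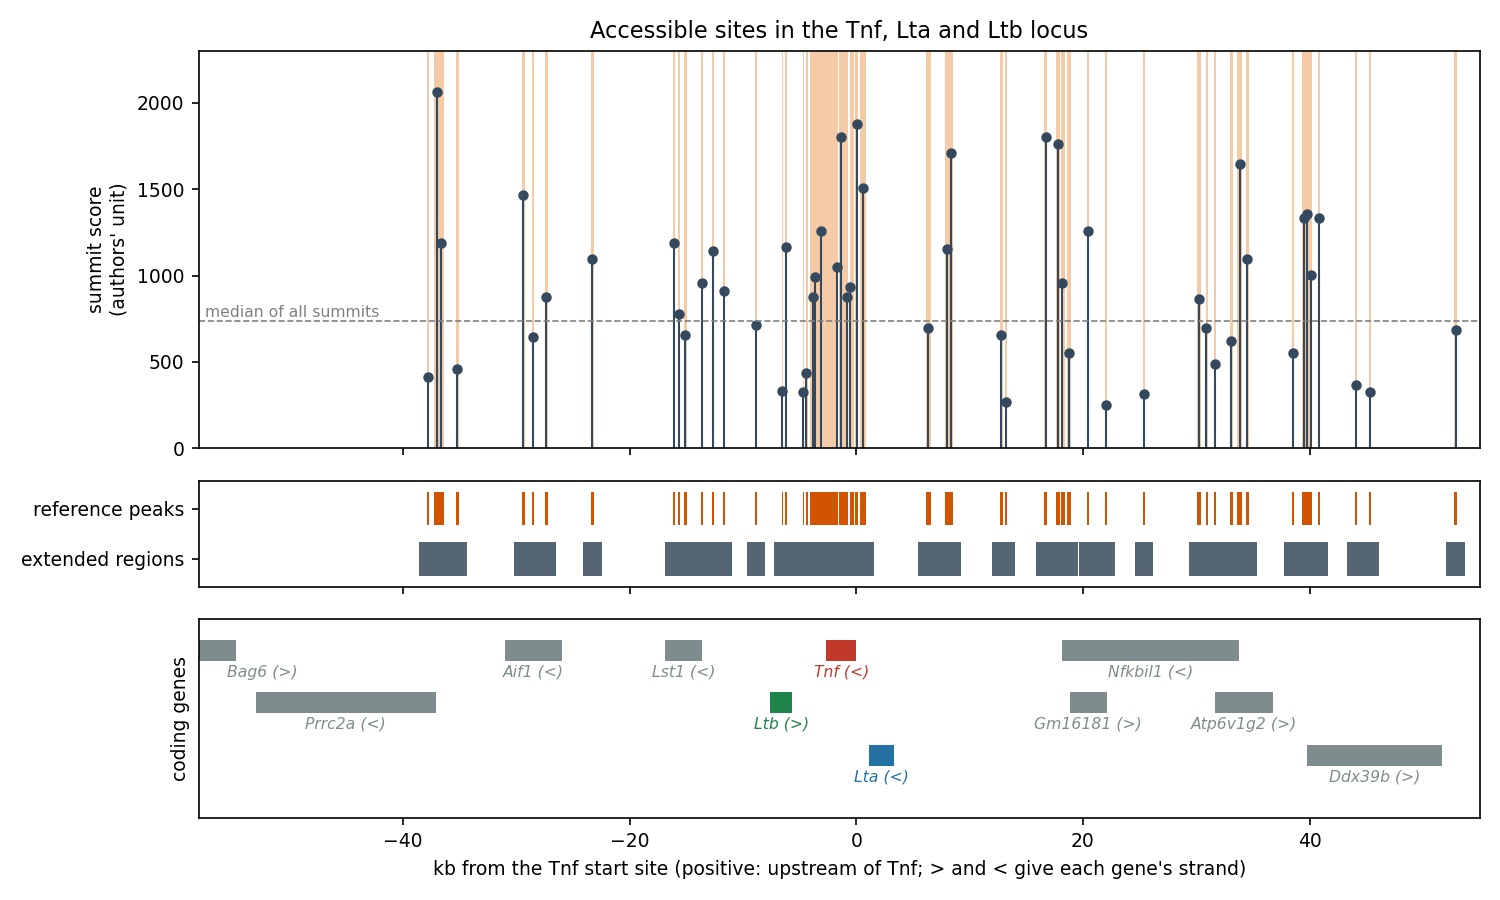
Summit scores (upper panel, authors' unit), reference peaks, extended regions and coding genes over the whole locus, against the distance from the Tnf start site in kb, with positive values upstream of Tnf. Each point is 1 of 54 summits, and the dashed line is the median score of all summits. The 5 best scored summits, between 1760 and 2061, lie at the Prrc2a start site, at and in Tnf, and past the end of Nfkbil1, upstream of Tnf.

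Across the locus, reference peaks covered 14.4% of the bases (16012 bp), beside 0.8% of the genome. There were 4.24 reference peaks per 10 kb. The lowest summit score was 250, the highest 2061 and the median 922 (quartiles 628 and 1242), beside a median of 737 (486 and 1153) for the whole list. At or above that list median were 33 locus summits (61.1%), and 7 (13%) were above its 90th percentile, 1568. The 24 summits within 1000 bp of a coding start site had a median score of 1048, beside 1036 for the 21749 such summits of the list. The 30 distal summits of the locus had a median of 824, beside 675 for 62911 distal summits. Both medians of the locus were thus above those of the list. The locus also held more of its summits near start sites (24 of 54, beside 21749 of 84660 in the list), where scores are higher. How far this mix bears on its higher overall median was not tested.

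The summit with the highest score, 2061, was not in a member gene but 138 bp from a start site of Prrc2a (position 35165035), a gene for a large RNA-associated protein. After the start site and intron of Tnf, the next were a pair of intergenic summits past the end of Nfkbil1, at 35218704 and 35219811, with scores of 1799 and 1760. They were 16697 and 17804 bp upstream of Tnf and 13353 and 14460 bp upstream of Lta. Their nearest coding start site was that of Gm16181, 2130 and 1023 bp away. The second summit was thus only just outside the 1000 bp beyond which summits were counted as distal. Both summits are far from the members, and which gene they act on cannot be read from accessibility. Besides the peak at Tnf, the widest reference peaks were chr17:35241317-35242179 at Ddx39b (863 bp) and chr17:35164779-35165614 at Prrc2a (836 bp).

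The sequences of both summits next to Nfkbil1 are given for the motifs they hold. In the first (chr17:35218629-35218779, minus strand), capitals mark a pair of NF-kB matches that overlap in all but 1 base, GGGGGTTCCC and GGGGTTCCCC. In the second (chr17:35219721-35219901, minus strand), they mark in this order a RUNX word (TGTGGTT, read from the opposite strand), the AP-1 word TGAGTCA and an IRF match to GAAANNGAAA, also on the opposite strand.
summit near Nfkbil1 with the paired match: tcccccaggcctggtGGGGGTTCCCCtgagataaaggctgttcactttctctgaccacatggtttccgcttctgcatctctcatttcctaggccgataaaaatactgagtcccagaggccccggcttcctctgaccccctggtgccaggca
summit near Nfkbil1 with 3 motifs: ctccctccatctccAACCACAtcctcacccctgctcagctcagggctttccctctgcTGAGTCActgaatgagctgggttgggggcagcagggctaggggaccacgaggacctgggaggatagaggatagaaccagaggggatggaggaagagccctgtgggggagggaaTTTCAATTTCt
No other locus summit held AP-1, IRF and RUNX words together. Only 2 locus summits had an AP-1 word and 2 an IRF match, so hardly any other could have. The share of all summits with these words together is not given here. RUNX factors act in blood cell development, and IRF factors in the interferon response.

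The motif words were then counted up to 100 bp from each summit, on both strands, with each window counted once. The whole word had to lie inside the window, while distances between a word and a summit are given to the centre of the word. An NF-kB match was found at 6 of 54 locus summits (11.1%), beside 5.55% of all summits. Of these 6, 4 were among the 26 summits upstream of Lta. The other 2, at Prrc2a and Aif1, were among the 15 summits on the far side of Ltb. From Ltb to Lta 0 of 13 summits had a match, too few summits to tell this from the 5.55% of the list. At distal sites the share was 16.7% (5 of 30) in the locus and 5.73% in the list. With 6 windows, the count depended on the width searched: 2 summits (3.7%) had a match within 50 bp, beside 3.4% of the list, and 8 (14.8%) within 200 bp, beside 8.05%.

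AP-1 words had a lower share in the locus than in the list. They were present at 2 locus summits (3.7%), the Tnf intron and the summit next to Nfkbil1, beside 15.9% of all summits, and both were among the 5 best scored summits of the locus. Within 200 bp, AP-1 words were found at 6 summits (11.1%), beside 18.6% of the list. RUNX words occurred at 7 locus summits (13%), all of them distal, against 7.91% of all summits. This order turned within 50 bp, where 2 locus summits (3.7%) had a RUNX word beside 4.72% of the list, and held within 200 bp, with 10 (18.5%) beside 12%. The 7 summits made up 23.3% of the distal summits of the locus, beside 9.33% in the list, and they scored between 439 and 1760 (median 716). Words for PU.1/ETS (GAGGAAGT), bound by the factor that defines the macrophage lineage, were found at 3 summits (5.56%), beside 9.08%.

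**Figure D3:**
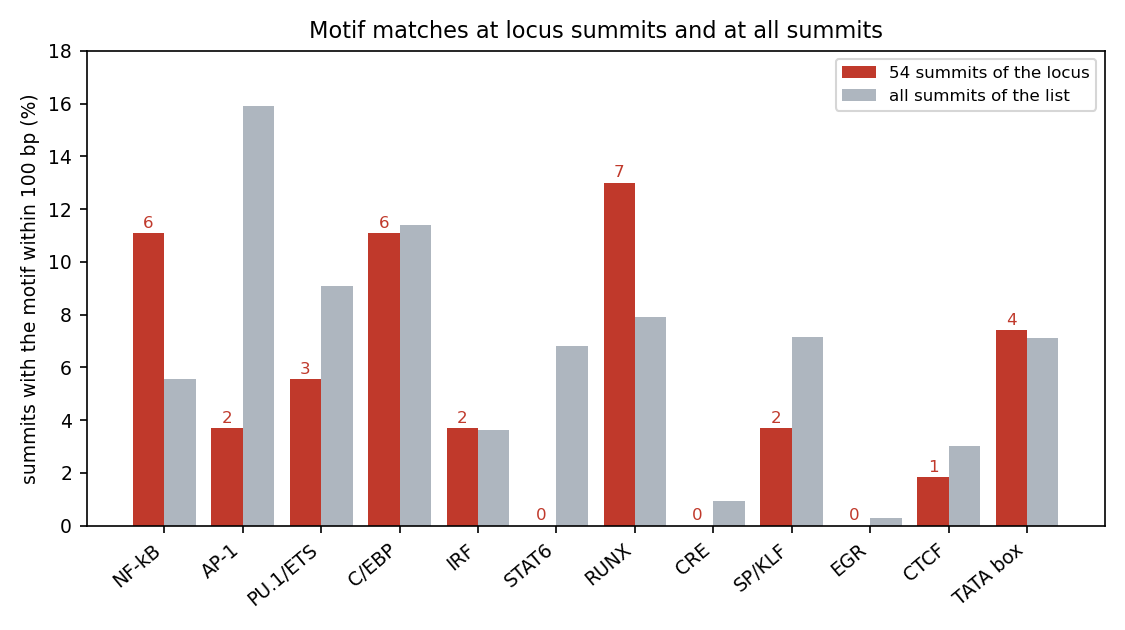
Percent of summits with each of 12 motifs within 100 bp, for the 54 locus summits (red, with the number of summits above each bar) and for all summits of the list (grey). NF-kB and RUNX bars of the locus stand above those of the list and the AP-1 bar below, on counts of 7 summits or fewer. Within 50 bp of the summit the RUNX share was lower in the locus (3.7%) than in the list (4.72%).

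The remaining motifs were counted over the same 100 bp. C/EBP matches were present at 6 locus summits (11.1%), beside 11.4%. At the other widths they were at 3.7% beside 6.5% (50 bp) and 16.7% beside 18.4% (200 bp). IRF matches were present at 2 (3.7%), beside 3.64%, and TATAAA at 4 (7.41%), beside 7.12%. TATAAA was below the list at the other widths, with 0 summits beside 3.41% within 50 bp and 9.26% beside 16.9% within 200 bp. SP/KLF words were present at 2 (3.7%), beside 7.15%, or at 9.26% beside 9.81% within 200 bp, and a CTCF match at 1 (1.85%), beside 3.03%. No locus summit had a STAT6 match (6.81% of all summits), a cAMP response element TGACGTCA (0.938%) or the EGR word GCGTGGGCG (0.28%). STAT6 is the factor activated by IL-4. Its match was also missing from the 30 distal summits, beside 7.73% in the list, and within 200 bp it was found at 1 locus summit (1.85%), beside 11.8%.

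Of 11 protein-coding genes overlapping the locus, 10 had a start site peak and Lta was the exception, beside 56.5% with such a peak among all protein-coding genes. Aif1, which encodes an actin-binding protein of macrophages and microglia, had 16.1% of its body in peaks, and Lst1, a leukocyte-specific transcript, had 23.5%, close to Ltb. Upstream of Lta, the values were 14.5% for Nfkbil1, 15.5% for Gm16181, 20.5% for Atp6v1g2, a proton pump subunit, and 8.87% for Ddx39b, an RNA helicase. Prrc2a (1.95%) and Bag6 (5.7%), a chaperone gene, were the least covered of those with a peak. Of 9 other annotated genes, the long noncoding Gm17705, Mir6973a and the small nucleolar Gm22589 and Gm25128 had a peak near a start site, while Gm23442, Ncr3-ps, Mir6974, Mir6975 and Mir8094 did not.

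Other genes of the pathway gave a scale for the members. Of 15 further ligands of the TNF superfamily, 10 had a start site peak, near the 56.5% over all protein-coding genes. Tnfsf4, Tnfsf11, Fasl, Cd40lg and Eda had none, as was the case for Lta, and their nearest peaks were 3867 bp (Fasl) to 93150 bp (Eda) away. Fasl and Cd40lg are best known from activated T cells, and Tnfsf11 encodes the osteoclast factor RANKL. Coverage of the body had a median of 1.59% over these ligands and was highest for Tnfsf9 at 29.2%. Ltb was therefore within the range of the family and Tnf above it. Summits within 50 kb ranged from 0 to 23, with a median of 9, below each of the 3 members.

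The receptor and signalling genes were counted in the same way, beside the same 56.5% of all protein-coding genes. All 4 receptor genes had a start site peak, namely Tnfrsf1a and Tnfrsf1b, which bind TNF and lymphotoxin alpha, Ltbr, which binds the lymphotoxin surface complex, and Tnfrsf14. Tnfrsf1b stood apart with 64 summits within 50 kb and 27.8% of its body in peaks, while Ltbr had 18 summits and 2.53%. All 21 signalling genes had a start site peak, and Tnfaip3, which encodes the NF-kB inhibitor A20, was the most covered of them (44.1%, 41 summits within 50 kb). Of 8 genes that release TNF from the cell surface or control the decay of its mRNA, 7 had a start site peak. The exception was Timp3, an inhibitor of the TNF-releasing protease, whose nearest peak was 3932 bp away. Zfp36, which encodes the protein TTP that destabilises Tnf mRNA, had 46.3% of its body in peaks.

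**Figure D4:**
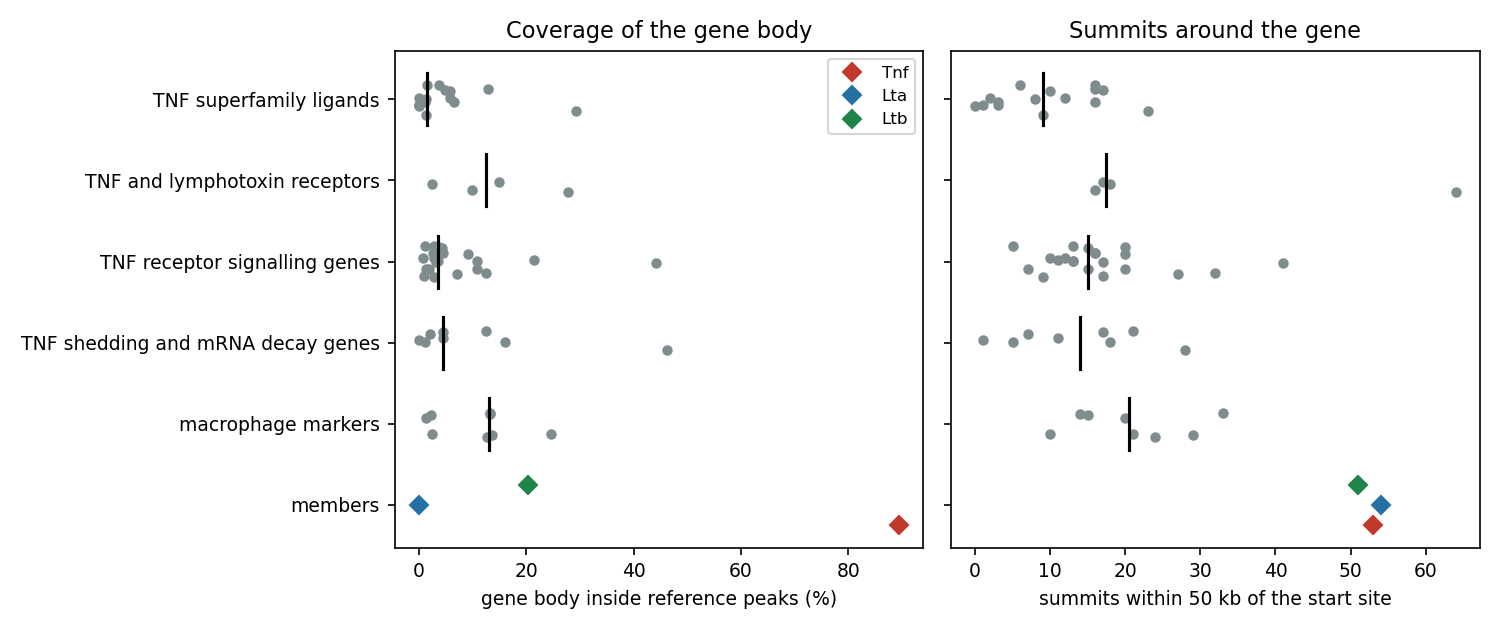
Percent of the gene body inside reference peaks (left) and number of summits within 50 kb of the start site (right), for genes of the TNF pathway, macrophage markers and the 3 members. Each grey point is 1 gene, black lines are list medians, and vertical scatter within a row has no meaning. Tnf lies at 89.5%, beyond all listed genes, while Lta lies at 0%, and all 3 members have 51 to 54 summits.

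The labelled cell type was checked on markers in the same way, to be read against the 56.5% of all protein-coding genes with a start site peak. All 8 macrophage markers had a start site peak, among them Spi1, Csf1r and Adgre1. Of 6 T cell markers, Cd3d, Lck and Cd28 had one while Cd3e, Cd3g and Cd8a did not, and among B cell markers, Ms4a1 and Pax5 had one while Cd79a and Cr2 did not. Start site peaks were also present at 2 of 5 neutrophil markers (S100a8 and Camp) and at 2 of 4 dendritic cell markers (Flt3 and Zbtb46). The T cell count (3 of 6) and the dendritic cell count (2 of 4) are near that background. The neutrophil count (2 of 5) is somewhat below it, on few genes. A start site peak is not expression, and whether other cells contributed to the peaks of the locus was not tested.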

How the data were processed

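ATAC-seq libraries of BMDMs (9 groups with 2 libraries each) had been sequenced and processed by the authors. Reads were trimmed (Trimmomatic 0.39), mapped to mm10, filtered (SAMtools 1.9) and used for peak calling with sub-peak summits (MACS2 2.2.6). No shift of reads to the Tn5 cut site is stated, and duplicate reads were kept, so a summit may be displaced from the true cut site and a score may include PCR copies. A strict q-value was required per library, and peaks had to overlap by a large part between replicates. The deposited files are 3 lists pooled over the libraries: reference peaks and extended regions, which hold positions only, and summits, which hold a position and a score in the authors' own unit. The sources used here do not give the scale of this deposited score. Depth per library and its precision are unknown, and 0 columns belonged to other samples.

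Lists were read in Python 3.11.15 with numpy 2.4.6, and positions were counted from 1. Genes come from GENCODE M21 and sequences from the GRCm38.p6 genome of RefSeq, whose chromosomes contained all entries on 21 of 21 chromosomes. Overlap required 1 bp. Motif words were sought, on both strands, up to 100 bp from each summit and in the 250 bases before each start site. The NF-kB and CTCF consensus use ambiguity letters and are given by name. Percentiles of single summits are ranks in the whole list, and those of genes are ranks in the set of genes named beside them. The scripts were tested on simulated data with known answers. The members, gene lists and motifs were chosen with earlier results of these data known, and the lists come from general knowledge. The text names the members, every gene overlapping the locus, listed genes that stand apart, the peaks in or near the members, and the 5 best summits and 3 widest peaks. Other genes and summits were named after their values were seen. The value of 1 marker gene is not reported here. Alternatives were other windows, scores at or above the list median, extended regions in place of peaks, and a longer gene body.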

Additional observations from a re-analysis of the deposited data

How the results depend on the processing

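No paired analysis was possible because the lists are pooled over all libraries, and for the same reason no replicate could be left out and no p-value or replicate error can be given. Counts followed the size of the window. With 20 kb in place of 50 kb the locus held 29 reference peaks, 9 extended regions and 33 summits, and 29 summits lay around Tnf. With 100 kb it held 24 extended regions and 75 summits. AP-1 words were found at 4 of these summits (5.33%, beside 15.9% of the list) and PU.1/ETS words at 6 (8%, beside 9.08%). With summits below the median score of the list left out, 26 reference peaks and 33 summits were left, with 33 around Tnf. Within 500 bp of a start site only 1 member, Tnf, had a reference peak, and within 2500 bp all 3 had one, so that Lta no longer differed from the others. Counted over extended regions, which include flanks by construction, coverage rose to 18.9% for Lta and 84.7% for Ltb, and adding 1000 bp before the start lowered Ltb to 13.3%. Within 50 bp of the summit, 2 summits had an NF-kB match (3.7%, beside 3.4% of the list) and 1 an AP-1 word (1.85%, beside 11.6%). Within 200 bp, 6 had an AP-1 word (11.1%, beside 18.6%). When only distal summits were counted, an alternative chosen after seeing the data, NF-kB, AP-1 and PU.1/ETS matches were found at 5, 2 and 2 of 30. These shares were 16.7%, 6.67% and 6.67%, beside 5.73%, 19.2% and 10.6% of all distal summits. Tnf remained the most covered member over extended regions (100%) and with 1000 bp added (82.4%), and the number of pathway genes with a start site peak was the same for 500 and 2500 bp. The lists do not say in which groups a given peak was called.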

Other observations

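Genes covered like Tnf were sought among all protein-coding genes at least as long as Ltb, and those named here were chosen after their values were seen. The next in order after Tnf (89.5%) were Cxcl10 (83.8%), which encodes a chemokine of the interferon response, and Il1b (75.2%), which encodes the cytokine IL-1 beta. They were followed by Acod1 (74.8%), the enzyme that makes itaconate, Tnfaip2 (71.5%) and Actb (65.7%), the gene of cytoplasmic actin. The chemokine genes Cxcl2 (61.3%) and Ccl4 (55%) were also among the first 10.

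By the number of summits within 50 kb, Sfi1 (85), Eif4enif1 (67) and Tnfrsf1b (64), the gene of TNFR2, came first, and 13 genes had at least the 53 summits of Tnf. Gm16181 (58), Atp6v1g2 and Nfkbil1 (55 each) are neighbours of the members, and their windows overlap those of the members. Tnfaip2 (57) and Acod1 (51) had both many summits and a high coverage, as Tnf had.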
